A study of Danio rerio with 24 samples.

Results

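Zebrafish genes of the heat shock protein and chaperonin families were followed in embryos treated with TP-0903, a small-molecule inhibitor of several kinases, or with DMSO, its solvent. The members were chosen by name alone. A gene was taken where its symbol in the deposited tables began with hsp, dnaj, tcp1, serpinh1, ahsa1, stip1 or chordc1, or was one of the CCT, BAG or heat shock factor genes. This gave 98 members of 19372 genes over all tables, with 89 of 16361 genes listed at 1 h and at 4 h and 98 of 18984 listed at 8 h. The name rule also took genes that are no chaperones, such as hspg2, which encodes the matrix proteoglycan perlecan. These 6 form a role of their own below, called other matches, and the counts over all members include them.

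RNA from 35 whole embryos of the Tg(snail1b:GFP) line went into each library, and each of the 6 groups had 4 libraries. Both arms began at 13 hpf, with 8 somites. DMSO and TP-0903 embryos were collected after 1 h (14 hpf, 10 somites), 4 h (17 hpf, 16 somites) or 8 h (21 somites, labelled 19.5 hpf, although the start and the duration would place them later). All embryos carried the transgene, in which a snai1b promoter drives GFP, so no group lacked it, and the dose of TP-0903 used for sequencing is not given in the sources used here. The values come from pools of whole embryos, and fewer cells of a type and less RNA per cell cannot be told apart in them.

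Heat shock proteins are chaperones, which bind proteins that are not folded and help them reach or keep their shape. HSP70 proteins work in cycles driven by ATP, J proteins deliver clients to them and nucleotide exchange factors release those clients, while HSP90 takes over clients that are nearly folded, among them many kinases. Ring-shaped chaperonins enclose their clients, TRiC (also called CCT) in the cytosol and HSP60 with its lid HSP10 in mitochondria, and small HSPs hold unfolded proteins without using ATP. Some members are made in nearly all cells at all times, others are induced by the heat shock factor Hsf1 under stress, and in the zebrafish somite hsp90aa1.1 (hsp90a) is known for folding myosin in differentiating muscle.

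Between 3879310 and 10582470 counts on genes were obtained per library, and levels are given as CPM, the count normalized to library size. Groups were compared with edgeR's quasi-likelihood test, and a gene was called at a Benjamini-Hochberg adjusted p-value under 0.05 over all genes tested at that time. The 1 h libraries varied mostly along a single axis, which held 73.5% of the variance within groups against 27.7% at 8 h, and DMSO replicate 4 and TP-0903 replicates 3 and 1 lay at one end of it. At 8 h, 15 of 18 skeletal muscle markers, 7 of 7 lens markers and 4 of 4 neuronal markers were called higher with TP-0903, and none of these markers was at 0. Of the muscle markers 1 was called lower, and of 5 erythroid markers 1 was called higher and 2 lower. Of 5 notochord and cartilage matrix markers 0 were called higher and 1 lower. Over all genes 15.4% were called higher and 13.5% lower. The part of these marker shifts in the results below was not tested, except where a value says so. The labels do not say that replicates came from separate clutches, so p-values measure the spread between these pools.

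In DMSO embryos the family was led by hspa8, the constitutive HSP70 of the cytosol, and hsp90ab1, the constitutive HSP90. Per length, hspa8 had 2798 FPKM at 8 h (range 2650 to 2935 over 4 libraries) and hsp90ab1 had 1381 FPKM (1284 to 1451). Both were also the first and second members at 1 h and 4 h. Next at 8 h was hsp90aa1.1 with 297 FPKM (270.0 to 334), and its range did not meet that of the next member. The 8 CCT subunits followed in an unbroken run from cct6a at 239 FPKM to cct7 at 162 FPKM, and neighbours in that run overlapped. Together the members made up 2.02% of the normalized counts with DMSO at 8 h and 1.81% with TP-0903. The summed level was 20230 ± 739 CPM with DMSO and 18120 ± 190 CPM with TP-0903 (SD, n = 4), and the groups did not overlap. Most of this sum came from the HSP70 and HSP110 group with hspa8 and the HSP90 group. The first had 8088 CPM with DMSO and 7146 CPM with TP-0903, and the second 6025 and 5577 CPM. At 4 h the shares of all members were 2.26% and 2.33%, and at 1 h 2.12% and 2.16%.

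Several members changed in normal development. Between 1 h and 4 h of DMSO, 12 of 89 members were called, 8 higher and 4 lower at 4 h. The share called was 13.5% (4.49% lower), below that of all 16283 genes, of which 18% were called (10.3% higher and 7.72% lower). The small HSP gene hspb11 showed the largest rise among members, with a log2 difference of 2.54 (SE 0.58, adjusted p = 0.00619, edgeR), but it started from nearly nothing, since no 1 h DMSO library was above 0.50 CPM. The J protein gene dnajb5 rose by 1.63 on the log2 scale (SE 0.34), hsp90aa1.1 by 1.40 (SE 0.26) and hspb8, the partner of Bag3 in clearing damaged proteins, by 1.22 (SE 0.14). The ER HSP90 gene hsp90b1 rose by 1.14 (SE 0.37) and the co-chaperone gene bag3 by 0.75 (SE 0.16). In the other direction, hspb1, the zebrafish HSP27 gene, fell by 1.66 (SE 0.39), and dnajb9a, an ER J protein gene, fell by 0.73 (SE 0.21). The call of hsp90b1 held in 13 of 19 alternative fits and that of dnajb9a in 15, and those of the other genes named here in all 19. Without the 3 libraries that stood apart at 1 h, a setting chosen after seeing the data, 28 members were called higher and 10 lower, 42.7% of the members against 43.1% of all genes. In that setting the log2 difference of hspb1 was smaller in size, at -1.07, and that of dnajb9a larger, at -0.90. The number higher was 5 without DMSO 4 h replicate 1 or 2 or without TP-0903 4 h replicate 1 or 4, and 13 without DMSO 1 h replicate 4. The number lower was 1 without DMSO 1 h replicate 2, and 2 without DMSO 1 h replicate 1 or DMSO 4 h replicate 1, 2 or 3. In DMSO the muscle sum lay between 2765 and 7551 CPM at 1 h, lowest in replicate 4, and between 9439 and 12500 CPM at 4 h, and its part in these changes was not tested. The tables of 1 h and 4 h were made separately, and no member's implied length differed between them by more than 5%.

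After 1 h of TP-0903 no chaperone gene was called. Of 84 members tested, 0 passed with edgeR's quasi-likelihood test and 0 had an unadjusted p-value under 0.05. Over all 15530 genes 0% were called and 214 had an unadjusted p-value under 0.05. DESeq2 called 13 genes and 0 members. The median log2 fold change of the tested members was 0.063, against 0.005 over all genes. The groups were apart for 0 members, where all genes gave 0.786% higher and 0.702% lower. Members not tested for low counts were hsp70.3, dnajb4, dnajb5, hspb11 and hspb7.

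At 1 h the spread between replicates was wide for some members. The hspb1 level was 361, 299.7, 447 and 1120 CPM in DMSO replicates 1 to 4 and 694, 336, 986 and 315 CPM in TP-0903 replicates 1 to 4. The 3 highest of these 8 values belonged to the libraries that stood apart, and the groups overlapped throughout. These libraries, DMSO replicate 4 and TP-0903 replicates 1 and 3, also held less of the summed muscle markers (2765, 5678 and 3612 CPM, against 6271 to 7551 CPM in the other 5) and of the neuronal markers (61.3, 113 and 75.8 CPM, against 146 to 165 CPM), and the part of this in the 1 h values was not tested. For hspe1, the gene of the mitochondrial lid HSP10, the same libraries had 104, 79.1 and 105 CPM, and the other 5 had between 29.6 and 31.0 CPM. The stress-inducible hsp90aa1.2 had 26.5, 17.4, 18.6 and 24.9 CPM with DMSO and 82.4, 12.5, 26.9 and 12.04 CPM with TP-0903. The difference, 0.63 on the log2 scale (SE 0.58), rested on TP-0903 replicate 1. Without the 3 libraries it was -0.72 with an adjusted p of 0.0445 (edgeR), the only member called in that setting, where 222 genes passed.

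After 4 h of TP-0903 again no member was called, although many lay slightly above their controls. Of 88 members tested 0 passed with edgeR, and 13 had an unadjusted p-value under 0.05, all of them above 0. Over all 15953 genes 0.74% were called, and 1505 had an unadjusted p-value under 0.05 in either direction. DESeq2 called 1 member, hsp90aa1.2. Of the members, 62 had a log2 fold change above 0 and 26 below, with a median of 0.075, against 0.001 over all genes. Without TP-0903 replicate 2 the members' median was 0.039, and without any other single library it lay between 0.0667 and 0.0985. The 4 TP-0903 libraries lay wholly above the 4 DMSO libraries for 9 of 88 members and below them for 0, where all genes gave 3.51% above and 2.88% below. The member not tested was tcp10.

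None of the members with the highest values at 4 h was called. For hsp90aa1.2 the DMSO libraries had 46.8, 36.4, 32.1 and 32.7 CPM and the TP-0903 libraries 77.6, 72.8, 44.7 and 50.1 CPM. The groups met at a single pair of libraries, and the log2 fold change was 0.72 (SE 0.18, adjusted p = 0.153, edgeR) with an exact two-sided permutation p of 0.0571. With DESeq2 its adjusted p was 0.0254. For hspb1 the values were 174, 127, 188 and 194 CPM with DMSO and 217, 233, 253 and 234 CPM with TP-0903. The groups did not overlap, which gave an exact permutation p of 0.0286, the smallest that 4 against 4 allows, but the adjusted p of its log2 fold change of 0.46 (SE 0.12) was 0.190 (edgeR). The inducible HSP70 gene hsp70.3 was at 0.929, 0.537, 1.87 and 1.28 CPM with DMSO and 1.64, 3.08, 2.85 and 1.48 CPM with TP-0903. Its groups overlapped, and the log2 fold change was 0.90 (SE 0.39).

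The levels of hspb11 and dnajb5 were low at 4 h. The level of hspb11 was 1.74, 0.940, 1.40 and 1.71 CPM with DMSO and 2.36, 3.67, 2.14 and 2.01 CPM with TP-0903. The log2 fold change was 0.78 (SE 0.29, adjusted p = 0.434, edgeR). For dnajb5 the level was 3.25, 2.55, 2.81 and 2.78 CPM with DMSO and 5.09, 4.40, 3.27 and 3.92 CPM with TP-0903, giving a log2 value of 0.53 (SE 0.20, adjusted p = 0.418, edgeR). In both genes the groups were apart, by a small margin. All 8 CCT subunits had values above 0, between 0.02 for cct7 and 0.22 for cct5, and the groups were apart for cct3, cct5 and tcp1. The library of TP-0903 replicate 2 held 5114 CPM of summed muscle markers at 4 h, where the other 7 libraries of that time held between 9439 and 12500 CPM, and it was also the highest TP-0903 library for hsp70.3, hspb11 and cct5.

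After 8 h of TP-0903 many chaperone genes were lower than in DMSO embryos and few were higher. Of 93 members tested, 28 were called, 25 of them lower and 3 higher. The share called was 30.1%, close to the 28.9% of all 17478 genes. The directions were uneven: 26.9% of the members were called lower against 13.5% of all genes, and 3.23% higher against 15.4%. The median log2 fold change was -0.12 over the members and -0.01 over all genes. The TP-0903 libraries lay wholly below the DMSO libraries for 24 members (25.8%, against 13.3% of all genes) and wholly above them for 6 (6.45%, against 15.5%). Members not tested for low counts were dnajb13, hsf2bp, tcp10, hspb15 and hspb6.

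**Figure D1:**
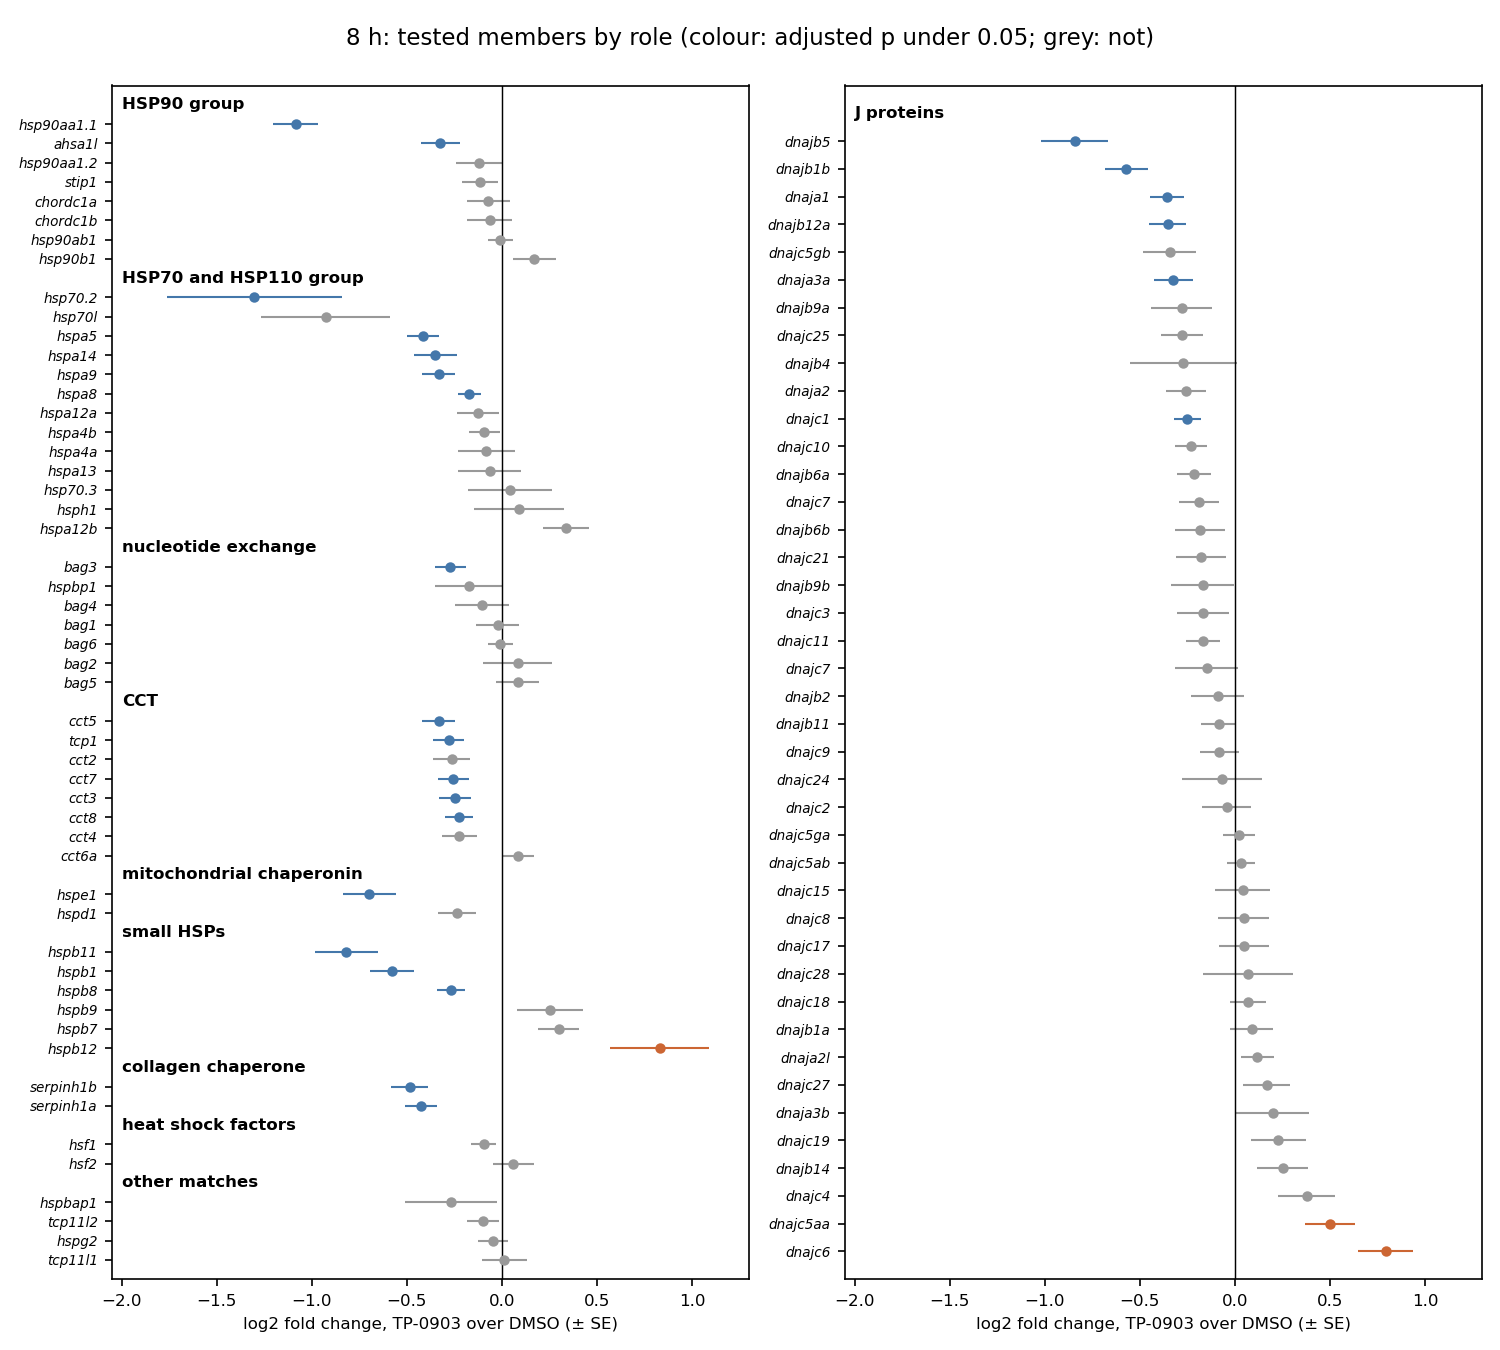
The 93 tested members at 8 h, ordered by role. The horizontal axis is the log2 fold change of TP-0903 over DMSO, bars are standard errors, blue and orange points are members called lower and higher, and grey points were not called. The 25 blue points occur in all roles but heat shock factors and other matches, and the 3 orange points are dnajc6, dnajc5aa and hspb12.

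The number of calls at 8 h depended on single libraries and on the fit. It was 16 lower without TP-0903 replicate 1 and 16 lower without TP-0903 replicate 2, and 5 higher without TP-0903 replicate 4. Of the 28 calls, 16 held in each of the 8 fits that left out a library. In a fit of all 24 libraries, which shares its estimate of spread with the 1 h libraries, hsp90aa1.1, dnajb5 and hspb11 were called lower and dnajc6 higher, and the other 22 called members it tested were not called. It called 3.37% of members lower against 4.43% of all genes, so the excess of lower calls among members was not seen in it. Without TP-0903 replicate 1 the shares called lower were 16.8% and 9.95%, and without replicate 2 they were 17.2% and 10.5%.

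The sharpest fall in the HSP90 group was that of hsp90aa1.1 (ENSDARG00000010478). Its level at 8 h was 848, 713, 676 and 749 CPM in the DMSO libraries and 255, 371, 392 and 388 CPM in the TP-0903 libraries. Every TP-0903 library was well below the lowest DMSO library, and replicate 1 was lowest. The mean was 747 ± 73.9 CPM with DMSO and 351 ± 64.6 CPM with TP-0903 (SD, n = 4), a ratio of 0.471. The log2 fold change was -1.09 (SE 0.12, adjusted p = 1.32e-05, edgeR), and the call held in all 8 fits that left out a library and under every other alternative.

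No other HSP90 gene among the members was called. The constitutive hsp90ab1 was at 4821, 5007, 4501 and 5083 CPM with DMSO and 4924, 5121, 4779 and 4465 CPM with TP-0903. These groups overlapped fully, and the log2 fold change was -0.01 (SE 0.06). Relative to hsp90ab1 in the same library, hsp90aa1.1 had 15.4 ± 1.49 counts per 100 with DMSO and 7.33 ± 1.55 with TP-0903 (SD, n = 4) at 8 h, and 8.36 ± 0.99 and 10.3 ± 1.17 at 4 h. The neighbouring hsp90aa1.2, which RefSeq places next to hsp90aa1.1 in assembly GRCz12tu, was at 39.9, 32.4, 36.9 and 28.7 CPM with DMSO and 27.96, 29.5, 30.6 and 38.2 CPM with TP-0903. Its groups overlapped, with a log2 fold change of -0.12 (SE 0.12). Since the authors discarded repetitive alignments, reads that fit both of these related genes may be missing from both. The ER form hsp90b1 had a log2 fold change of 0.17 (SE 0.11, adjusted p = 0.278, edgeR).

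In the whole HSP90 group 2 of 8 members were called lower at 8 h (25.0%, against 13.5% of all genes) and 0 higher (against 15.4%). Among the helpers of HSP90, 1 was called. The gene ahsa1l, which encodes an activator of the HSP90 ATPase, fell from 45.3 ± 4.42 to 36.1 ± 4.22 CPM (SD, n = 4), a log2 fold change of -0.32 (SE 0.10, adjusted p = 0.0264, edgeR), and kept its call in 5 of the 8 fits that left out a library. The adaptor gene stip1, which links HSP70 to HSP90, had -0.12 (SE 0.10), and the co-chaperone genes chordc1a and chordc1b had -0.07 and -0.06. None of these 3 was called.

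**Figure D2:**
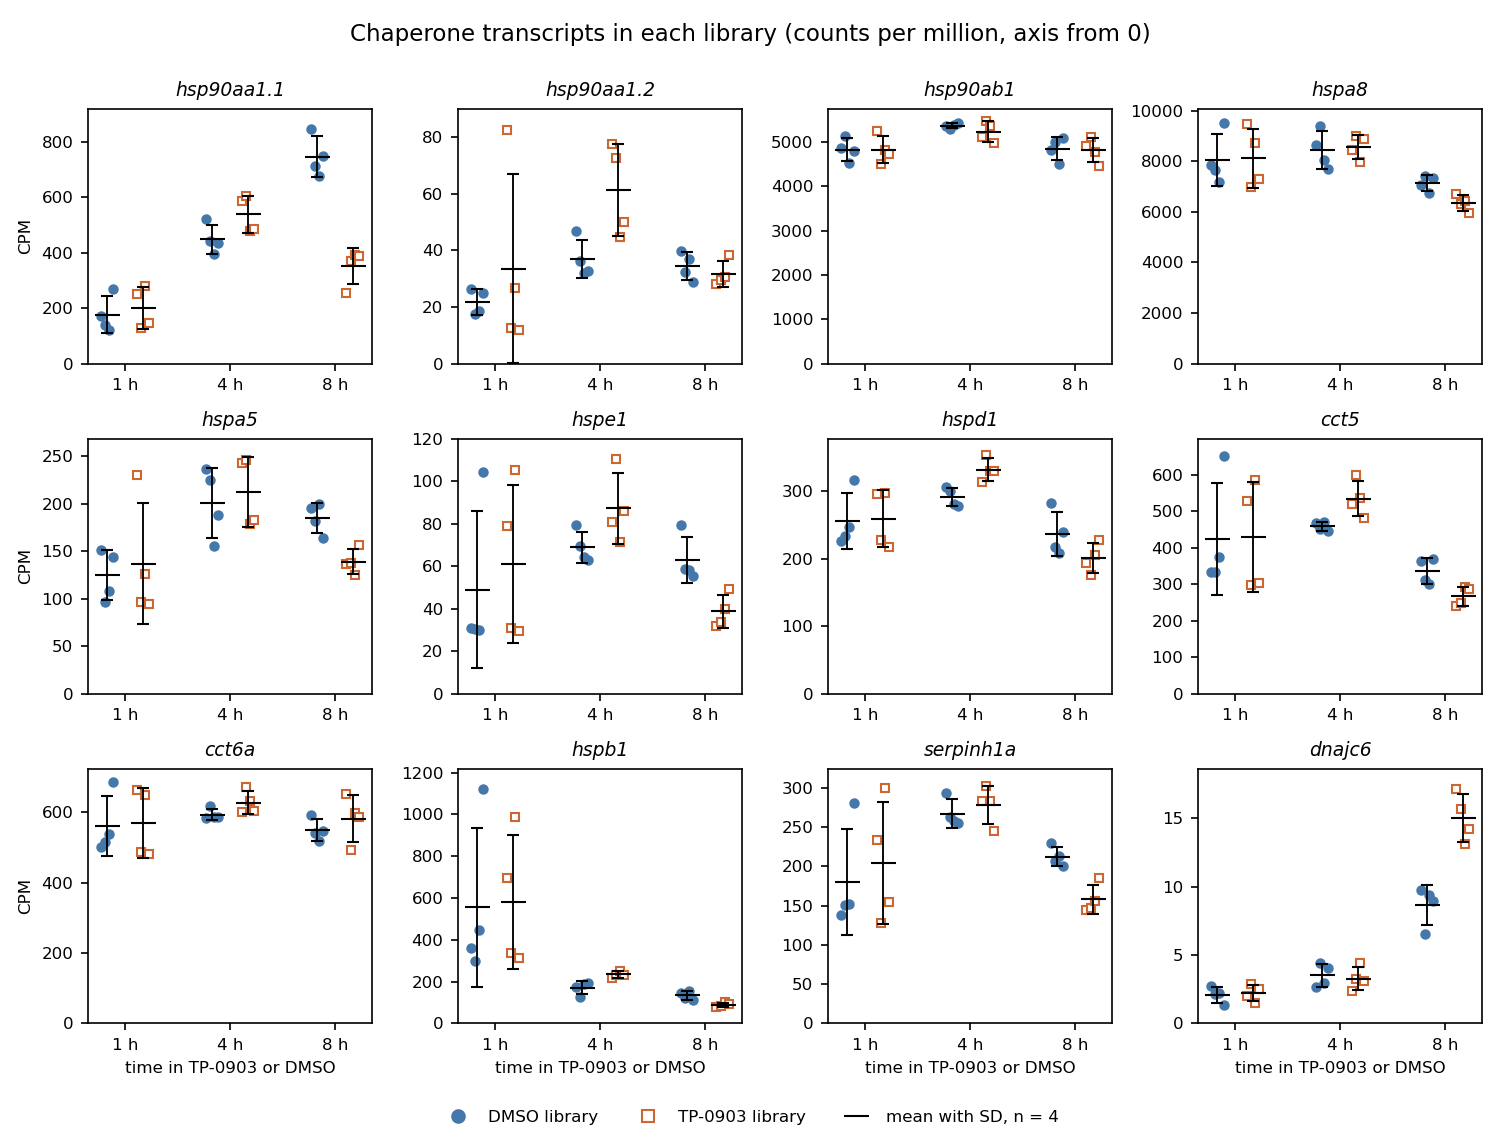
Levels of 12 members in each library at 1, 4 and 8 h, in CPM on linear axes from 0. Filled circles are DMSO libraries, open squares are TP-0903 libraries, and the black bar with whiskers is the mean with SD of 4 libraries. At 8 h the 4 squares of hsp90aa1.1 lie between 255 and 392 CPM, below all 4 circles, whereas those of hsp90ab1 and cct6a overlap the circles.

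In the HSP70 and HSP110 group 5 of 13 members were called lower at 8 h and 0 higher, where 13.5% of all genes were lower and 15.4% higher, with a median of -0.13. The ER chaperone gene hspa5, which encodes BiP, was at 195, 182, 199.6 and 164 CPM with DMSO and 136, 138, 125 and 157 CPM with TP-0903. The highest TP-0903 library was just under the lowest DMSO library, and the log2 fold change was -0.41 (SE 0.08, adjusted p = 0.00231, edgeR). The mitochondrial HSP70 gene hspa9 fell from 256 ± 24.2 to 203 ± 21.8 CPM (SD, n = 4), a log2 fold change of -0.33 (SE 0.09). For hspa14, whose product works at the ribosome, the log2 fold change was -0.35 (SE 0.11), and the call held in 4 of 8 fits. The calls of hspa5 and hspa9 held in all 8.

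The most abundant member, hspa8, was near the threshold at 8 h. Its level was 7057, 7434, 6753 and 7341 CPM with DMSO and 6706, 6296, 6418 and 5953 CPM with TP-0903. The groups were apart, but by less than their own spread, and the log2 fold change was -0.17 (SE 0.06, adjusted p = 0.0474, edgeR). The call was lost in each of the 8 fits that left out a library, with an adjusted p of up to 0.125.

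The inducible HSP70 genes had few counts at 8 h, the only time at which hsp70l and hsp70.2 are listed. There hsp70l, known as a heat-inducible gene that also marks the lens, had 11, 33, 31 and 19 counts with DMSO and 9, 19, 9 and 9 counts with TP-0903. The groups overlapped, and the log2 fold change of -0.93 (SE 0.34) had an adjusted p of 0.0532 (edgeR). In the same libraries 7 lens markers summed to between 13.4 and 22.9 CPM with DMSO and between 58.6 and 92.7 CPM with TP-0903. For hsp70.2 the counts were 8, 22, 26 and 13 with DMSO and 1, 13, 4 and 8 with TP-0903. These groups also overlapped, the adjusted p of its log2 fold change of -1.30 (SE 0.46) was 0.0465, and the call held in 3 of 8 fits. The neighbour hsp70.3 was at 4.34, 5.30, 3.64 and 3.06 CPM with DMSO and 3.57, 4.99, 4.93 and 3.13 CPM with TP-0903, with a log2 fold change of 0.04 (SE 0.22). The sequences of these related genes were not compared here, and reads that fit several of them may be traded or lost. The HSP110 genes hspa4a, hspa4b and hsph1, which reset the HSP70 cycle, lay between -0.09 and 0.09, and none was called. The highest of the group was hspa12b, a distant HSP70 relative expressed in vessels, at 0.34 (SE 0.12, adjusted p = 0.0506, edgeR).

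The J proteins were the largest role. Of 41 tested at 8 h, 6 were called lower (14.6%, close to the 13.5% of all genes) and 2 higher (4.88%, against 15.4%), with a median of -0.09. The level of dnajb5 was 8.42, 6.79, 8.60 and 7.09 CPM with DMSO and 3.72, 3.33, 5.17 and 4.94 CPM with TP-0903. The groups were clearly apart, with a log2 fold change of -0.84 (SE 0.18, adjusted p = 0.00282, edgeR). For dnajb1b, the zebrafish gene of an HSP40 induced by heat, the values were 26.5, 32.4, 29.9 and 31.1 CPM with DMSO and 17.7, 24.1, 18.5 and 20.1 CPM with TP-0903. Again no value was shared, and the log2 fold change was -0.57 (SE 0.11, adjusted p = 0.00167, edgeR). Smaller falls were called for dnaja1, an HSP70 partner of the cytosol (-0.36), dnajb12a of the ER membrane (-0.35), the mitochondrial dnaja3a (-0.32) and the ER gene dnajc1 (-0.25). The call of dnaja3a held in 4 of 8 fits and that of dnajc1 in 7, and those of the other 4 in all 8.

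Both J protein genes that rose encode partners of clathrin and of synaptic vesicles. Auxilin, encoded by dnajc6, strips clathrin from vesicles, and its level was 9.74, 6.56, 9.37 and 8.95 CPM with DMSO and 17.1, 15.6, 13.1 and 14.2 CPM with TP-0903. All TP-0903 libraries were higher than all DMSO libraries, a log2 fold change of 0.79 (SE 0.14, adjusted p = 9.55e-04, edgeR). Cysteine string protein is encoded by dnajc5aa, which had 7.11, 7.02, 6.18 and 6.44 CPM with DMSO and 8.93, 10.4, 9.26 and 9.04 CPM with TP-0903. Here too the groups were apart, with a log2 fold change of 0.50 (SE 0.13, adjusted p = 0.0112, edgeR). Its paralogue dnajc5ab had 0.03 (SE 0.07). The summed level of 4 neuronal markers lay between 357 and 395 CPM with DMSO and between 449.6 and 511 CPM with TP-0903 at 8 h, and its part in these changes was not tested.

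Most subunits of the cytosolic chaperonin fell. TRiC folds actin and tubulin and is built from 8 related subunits, of which cct5, tcp1, cct7, cct3 and cct8 were called lower at 8 h, with log2 fold changes between -0.33 and -0.23. The share called lower was 5 of 8, against 13.5% of all genes, and the median was -0.25. For cct2 and cct4 the log2 fold changes were -0.26 and -0.22 with adjusted p-values of 0.0560 and 0.0830 (edgeR). The level of cct5 was 363, 311, 301 and 369.6 CPM with DMSO and 239.9, 249, 292 and 286 CPM with TP-0903. The groups were apart by a small margin, with a log2 fold change of -0.33 (SE 0.09, adjusted p = 0.0114, edgeR). Of the 5 calls only that of cct5 held in all 8 fits that left out a library, while tcp1 kept it in 6, cct7 in 5, cct8 in 3 and cct3 in 2.

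The subunit cct6a was not among them. Its level was 592, 541, 518 and 548 CPM with DMSO and 653, 492, 599 and 587 CPM with TP-0903. The groups overlapped, and the log2 fold change was 0.08 (SE 0.08, adjusted p = 0.479, edgeR). The other 7 subunits together gave 2496 ± 189 CPM with DMSO and 2085 ± 164 CPM with TP-0903 (SD, n = 4), so cct6a held 18.1 ± 0.51% of the CCT sum with DMSO and 21.9 ± 2.402% with TP-0903. With TP-0903 at 8 h the share was 25.3% in replicate 1 and between 19.98% and 21.6% in the other libraries. At 4 h cct6a held 16.8 ± 0.43% with DMSO and 16.3 ± 0.37% with TP-0903. The choice of cct6a for this ratio was made after its values were seen.

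In mitochondria the lid fell and the ring was not called. The level of hspe1, the HSP10 gene, was 79.3, 58.8, 58.2 and 55.4 CPM with DMSO and 31.7, 33.7, 39.9 and 49.3 CPM with TP-0903 at 8 h. The groups were apart, with a log2 fold change of -0.70 (SE 0.14, adjusted p = 0.00196, edgeR). The HSP60 gene hspd1, its neighbour in the GRCz12tu annotation, had 283, 217, 209 and 239 CPM with DMSO and 194, 176, 206 and 228 CPM with TP-0903. Its groups overlapped, and the log2 fold change was -0.24 (SE 0.10, adjusted p = 0.0908, edgeR).

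Small HSPs were mixed. Of 6 tested at 8 h, hspb11, hspb1 and hspb8 were called lower, hspb12 was called higher, and hspb7 and hspb9 were not called. The log2 fold change was above 0 for 3 of the 6 and below 0 for 3. Over all genes 13.5% were called lower and 15.4% higher. For hspb11 the DMSO libraries had 9.61, 13.9, 13.2 and 9.49 CPM and the TP-0903 libraries 5.50, 6.99, 7.34 and 6.27 CPM. All TP-0903 libraries were lower, with a log2 fold change of -0.82 (SE 0.17, adjusted p = 0.00209, edgeR). For hspb1 the values were 148, 120.1, 158 and 110.4 CPM with DMSO and 78.2, 84.4, 101 and 95.0 CPM with TP-0903. The groups were again apart, with a log2 fold change of -0.58 (SE 0.11, adjusted p = 0.00170, edgeR).

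The other small HSPs were called in either direction or not at all. The level of hspb8 was 238, 212, 231 and 232 CPM with DMSO and 181, 190.1, 209 and 177 CPM with TP-0903. Its groups came close but did not meet, with a log2 fold change of -0.27 (SE 0.07, adjusted p = 0.0120, edgeR). For hspb7, a gene of heart and skeletal muscle, the values were 30.00, 29.1, 26.5 and 26.4 CPM with DMSO and 31.5, 32.1, 42.3 and 31.6 CPM with TP-0903. All TP-0903 libraries were higher, replicate 3 most, but the log2 fold change of 0.30 (SE 0.11) had an adjusted p of 0.0524 (edgeR). The gene hspb12 was called higher at a low level, with 12, 8, 11 and 13 counts with DMSO and 14, 25, 18 and 17 counts with TP-0903. The log2 value was 0.83 (SE 0.26, adjusted p = 0.0270, edgeR), and the call held in 4 of 8 fits.

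Both genes of HSP47, the ER chaperone dedicated to collagen, fell at 8 h. The level of serpinh1b was 83.8, 94.4, 113 and 101 CPM with DMSO and 64.4, 68.9, 67.1 and 80.2 CPM with TP-0903, which gave a log2 fold change of -0.48 (SE 0.10, adjusted p = 0.00201, edgeR). The level of serpinh1a was 229.5, 207, 213 and 200.4 CPM with DMSO and 144, 147, 156 and 185 CPM with TP-0903, which gave a log2 fold change of -0.43 (SE 0.08, adjusted p = 0.00172, edgeR). In neither gene did the groups overlap, and both calls held in all 8 fits. The summed level of 5 notochord and cartilage matrix markers lay between 2012 and 2462 CPM with DMSO and between 1879 and 2112 CPM with TP-0903, with 1 of the 5 called lower.

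The heat shock factor genes were not called at any time. At 8 h hsf1, which encodes the main activator of the heat shock response, was at 65.8, 67.8, 69.8 and 67.9 CPM with DMSO and 63.4, 64.0, 64.6 and 61.7 CPM with TP-0903. The TP-0903 libraries were all slightly lower, yet the log2 fold change was -0.10 (SE 0.07) with an adjusted p of 0.294 (edgeR). For hsf2 the log2 fold change was 0.06 (SE 0.11). Of 7 nucleotide exchange genes 1 was called lower (14.3%, close to the 13.5% of all genes) and 0 higher. This was bag3, with 50.00, 46.7, 46.3 and 40.6 CPM with DMSO and 37.3, 37.6, 38.0 and 39.1 CPM with TP-0903. The TP-0903 libraries were close together and all lower, with a log2 fold change of -0.27 (SE 0.08, adjusted p = 0.0237, edgeR), and the call held in 3 of 8 fits. The other 6, bag1, bag2, bag4, bag5, bag6 and hspbp1, lay between -0.17 and 0.08. None of the 4 tested other matches was called, and hspg2 had -0.05 (SE 0.08).

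Whether the response to TP-0903 differed between 4 h and 8 h was tested with an interaction term over the 16 libraries of both times. Of 89 members 18 passed, 17 of them with a lower effect at 8 h and 1 with a higher one. Over all 15913 genes 14.2% passed, 7.74% negative and 6.43% positive. All 17 members with a negative interaction had a log2 fold change above 0 at 4 h, where none was called, and below 0 at 8 h. Choosing members by a negative difference favours these signs, and the share over all genes was not computed. The largest differences were those of hspb11 (-1.58, SE 0.33, adjusted p = 0.00440), dnajb5 (-1.35, SE 0.26, adjusted p = 0.00241), hsp90aa1.1 (-1.33, SE 0.18, adjusted p = 1.53e-04) and hspe1 (-1.02, SE 0.21, adjusted p = 0.00447), all by edgeR. The gene hsp90aa1.2, not called at either time, was among them with -0.83 (SE 0.24, adjusted p = 0.0288). The positive one was dnajc6 with 0.90 (SE 0.27, adjusted p = 0.0344, edgeR). The calls of hspb11, dnajb5, hsp90aa1.1 and hspe1 held in each of 19 alternative fits, and those of hsp90aa1.2 and dnajc6 in 11. The number of negative differences was 8 without TP-0903 8 h replicate 1, and 11 without TP-0903 8 h replicate 2 or DMSO 8 h replicate 1. Without TP-0903 8 h replicate 1 the share of members that passed in either direction was 8.99%, no higher than the 9.12% of all genes, while the share negative was 8.99% against 5.03%.

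**Figure D3:**
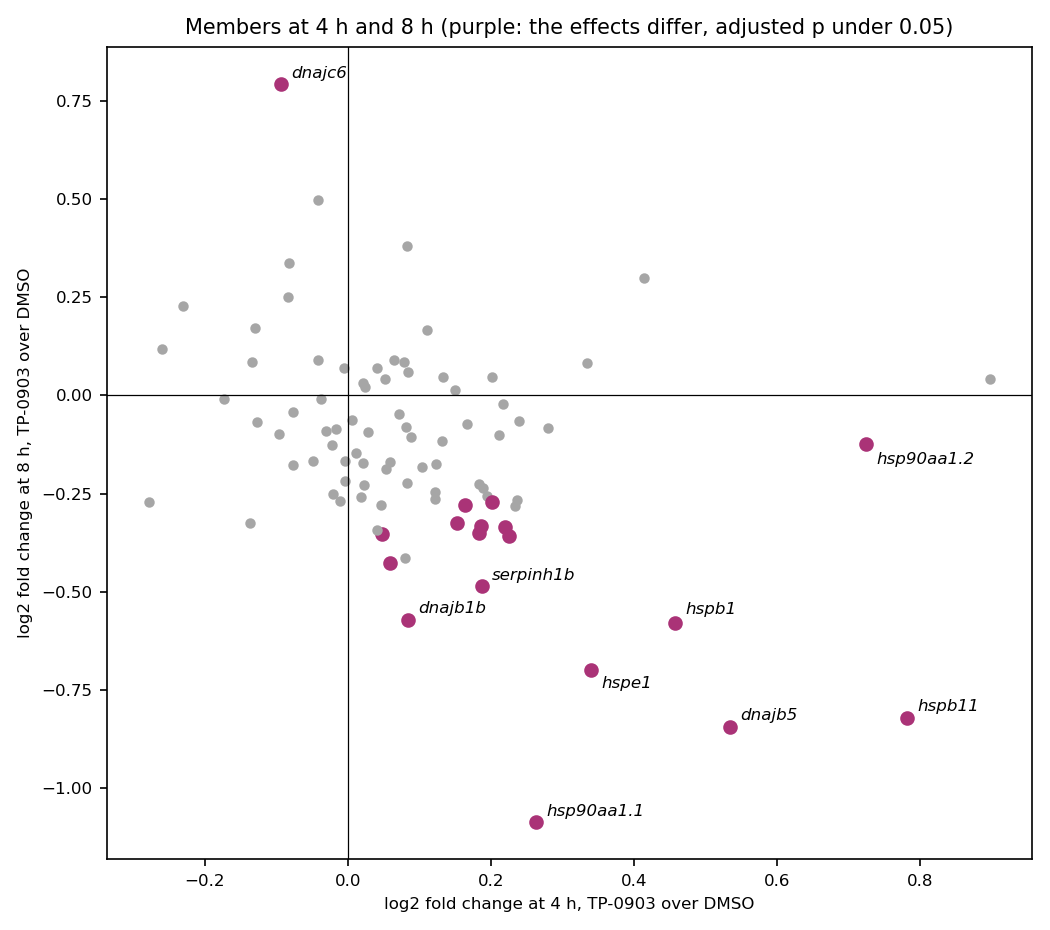
Log2 fold changes of TP-0903 over DMSO for the 88 members tested at both 4 h (horizontal axis) and 8 h (vertical axis). Purple points are the 18 members whose effects differed between the times at an adjusted p under 0.05, and those with a difference beyond 0.6 are named. Of the 88, 47 lie at the lower right (above 0 at 4 h, below 0 at 8 h), 16 were below 0 at both, 15 above 0 at both, and 10 at the upper left.

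Between 1 h and 4 h the effect of TP-0903 did not differ detectably for any member. With edgeR 0 of 89 passed, and 1 had an unadjusted p-value under 0.05, while 0% of 16283 genes passed. DESeq2 passed 7 genes and 0 members. Levels at 8 h were not tested against those at 4 h, because the 8 h table lists other genes and 4 of the 89 members found in both tables had implied lengths that differed by more than 5%. These were hspb1, hsf1, stip1 and dnajc19, and the length of hspb1 was 1.88 times as large at 8 h.

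Genes that work with these chaperones but lie outside the name rule were read from a list of 28 cytosolic and 20 ER genes. At 1 h and 4 h none was called by edgeR. At 8 h, of 25 cytosolic gene identifiers tested 10 were called lower and 1 higher, with a median of -0.25. Of 14 ER genes 1 was called lower and 0 higher, with a median of -0.11. Over all genes 13.5% were called lower and 15.4% higher, and the ER count is not above that. The lower cytosolic genes included 5 prefoldin subunits, which hand actin and tubulin to TRiC, namely pfdn6 (-0.59), vbp1 (-0.46), pfdn4 (-0.37), pfdn2 (-0.30) and pfdn5 (-0.23). The ER gene was p4hb, whose product pairs with the enzyme that hydroxylates collagen (-0.33, SE 0.08, adjusted p = 0.00585, edgeR). The mitochondrial HSP90 gene trap1 was counted with 2 identifiers. The first was called lower, with a log2 fold change of -1.02 (SE 0.28, adjusted p = 0.0133, edgeR). The second was not called, with -0.06 (SE 0.18, adjusted p = 0.833, edgeR), so the change of trap1 as a gene is uncertain.

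The partners of hsp90aa1.1 in folding myosin fell with it at 8 h. The myosin chaperone gene unc45b was at 304, 279, 295 and 309 CPM with DMSO and 129, 174, 199 and 194 CPM with TP-0903, which gave a log2 fold change of -0.77 (SE 0.11, adjusted p = 1.31e-04, edgeR). The methyltransferase gene smyd1b, whose product is needed for thick filaments, was at 129, 98.2, 110.2 and 87.3 CPM with DMSO and 56.8, 65.1, 72.8 and 72.9 CPM with TP-0903, which gave a log2 fold change of -0.66 (SE 0.11, adjusted p = 6.88e-04, edgeR). In both the groups were apart, and TP-0903 replicate 1, the lowest library for hsp90aa1.1, was also the lowest. The paralogue smyd1a went the other way, from 16.6 ± 1.58 to 35.3 ± 4.84 CPM (SD, n = 4), with a log2 fold change of 1.09 (SE 0.11, adjusted p = 1.01e-05, edgeR).

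Most skeletal muscle markers were higher in the same libraries. Their summed level over 18 genes was between 26700 and 31820 CPM with DMSO and between 41080 and 45300 CPM with TP-0903 at 8 h, with 15 called higher, 1 called lower and a median of 0.64. The levels of hsp90aa1.1, unc45b and smyd1b thus lay below their controls and the muscle sum above them, with smyd1a on the side of the markers, and whether cell composition had a part in either was not tested.

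**Figure D4:**
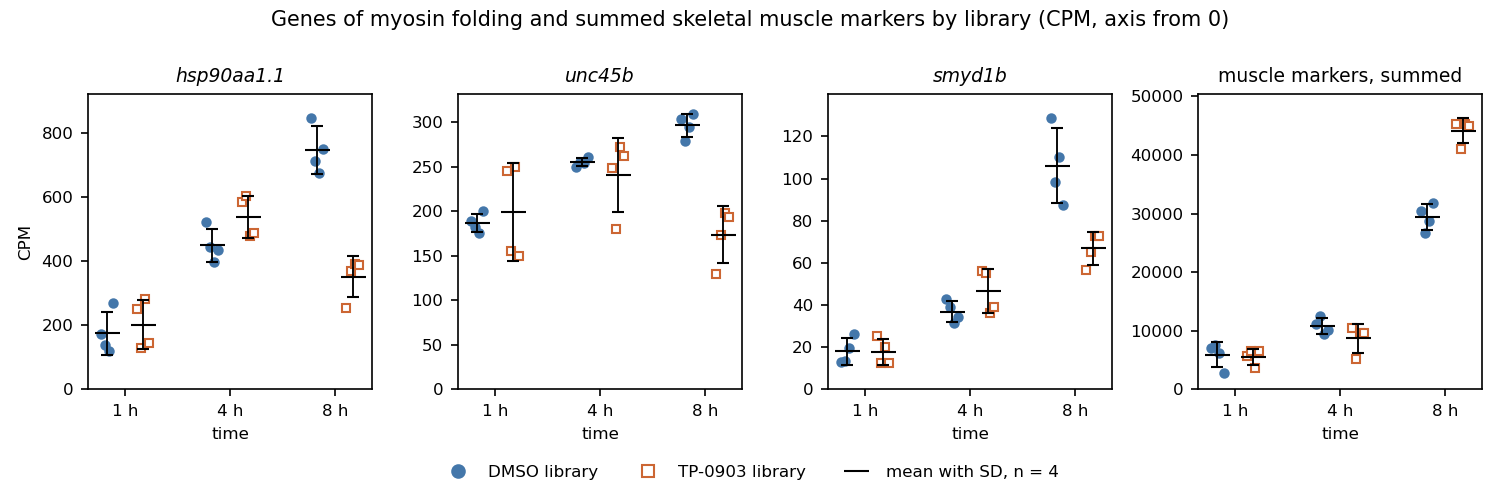
Levels by library of hsp90aa1.1, unc45b and smyd1b and the summed level of skeletal muscle markers (15 genes in the 1 h and 4 h tables, 18 in the 8 h table), in CPM on linear axes from 0. Circles are DMSO and squares TP-0903 libraries, and bars are means with SD of 4 libraries. At 8 h the squares of the 3 genes lie below all circles, while the squares of the muscle sum lie above all circles.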

How the data were processed

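RNA from pools of whole zebrafish embryos was sequenced as single reads after removal of ribosomal RNA, with 4 libraries in each of 6 groups. The authors aligned reads with Novoalign 2.08.03 (version from the submitters' processing notes) to zv9 chromosomes and splice junctions. They discarded repetitive and low-quality alignments and counted reads on Ensembl genes. Whether strand was used in counting is not given in the sources used here, so antisense or overlapping genes may share reads. The authors deposited these counts per gene without normalization, 1 table per time point, which was the unit tested here. The FPKM values deposited beside them are counts scaled by gene length and depth, and served only to rank members. The tables also hold the authors' own DESeq2 fold changes and a score made from the FDR, which were not used.

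Tests used R 4.3.3 and edgeR 4.0.16 (filterByExpr, TMM, glmQLFit, glmQLFTest) at a Benjamini-Hochberg adjusted p of 0.05, for each time apart, with interactions over the 16 libraries of 2 times. DESeq2 1.42.0 was an alternative, beside other normalizations and filters, a fit of all 24 libraries, a replicate block and each library left out in turn. CPM used TMM-normalized library sizes, and the SE of a log2 fold change is its size divided by the square root of F. Steps were tested on simulated counts. Counting precision was set by 3879310 to 10582470 counts per library.

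The members, gene lists, alternatives and the rule for named genes (a set by role, plus the largest called changes of each comparison) were chosen with earlier results of these data known. The 24 members whose values are given by library, the ratios and the setting without 3 libraries at 1 h were chosen after seeing the values. Members were found by the symbol in the tables. For 85 of the 98 at 8 h, a table of gene symbols gave a symbol by identifier, and 6 further identifiers with a fitting symbol there but not in the deposited tables were not counted as members. Sequences were not used here, and gene positions served only to find neighbouring genes in the RefSeq assembly.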

Additional observations from a re-analysis of the deposited data

Results flagged for a closer look

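In 136 groups of 4 libraries, 11 held a library far from the other 3, where chance in independent groups gives about 6.8 (1 in 20). These groups share libraries, and their members were chosen after seeing the values, so 6.8 is only a rough guide. Each number in parentheses divides the distance of that library from its closest neighbour by the whole range of the group, and all exceed Dixon's 95% limit. At 1 h DMSO replicate 4 stood apart as the highest for hspe1 (0.987), serpinh1a (0.909) and cct5 (0.870) and as the lowest for bag3 (0.880), and DMSO replicate 2 was the lowest for dnajb1b (0.934). At 4 h DMSO replicate 2 was the highest for cct6a (0.943) and DMSO replicate 3 the lowest for bag3 (0.839). At 8 h DMSO replicate 1 was the highest for hspe1 (0.858), and TP-0903 replicate 1 was the lowest for hsp90aa1.1 (0.849), where it lies further from the DMSO libraries than the other TP-0903 libraries do. TP-0903 replicate 3 was the highest for hspb7 (0.952) and TP-0903 replicate 2 the highest for hspb12 (0.840).

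For 18 members the log2 fold change at 8 h was not that at 4 h, as tested with edgeR's interaction term. Beyond those of hspb11 (-1.58), dnajb5 (-1.35), hsp90aa1.1 (-1.33), hspe1 (-1.02), hsp90aa1.2 (-0.83) and dnajc6 (0.90), the log2 differences were -1.02 for hspb1, -0.65 for serpinh1b, -0.64 for dnajb1b, -0.56 for dnaja1, -0.53 for cct5 and -0.51 for hspa14. They were -0.50 for hspa9, -0.46 for serpinh1a, -0.46 for ahsa1l, -0.45 for bag3, -0.42 for tcp1 and -0.38 for dnajb12a. Of 19 alternative fits, 10 kept the call of bag3, 14 that of tcp1 and 18 that of serpinh1a. All 19 kept those of hspb1, serpinh1b, cct5 and hspa9. Those of dnajb1b, dnaja1, hspa14, ahsa1l and dnajb12a were lost without TP-0903 8 h replicate 1, where 8 members had a negative difference. For hspb1 the 2 tables imply gene models of unequal length, 887 bases at 4 h and 1665 at 8 h. Both arms of a time share a model, but its part in the difference between times was not tested.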

How the results depend on the processing

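With DESeq2, 13 genes were called after 1 h, 215 after 4 h and 7 for the interaction of 4 h with 1 h, and 1 member was called at 4 h (hsp90aa1.2). The fit of all 24 libraries called 13 genes at 1 h and, at 8 h, 1478 genes with 1 member higher and 3 lower. Without the 3 libraries that stood apart at 1 h (chosen after seeing the data), 222 genes and 1 member were called at 1 h, and hsp90aa1.2 turned from 0.63 to -0.72; the DMSO change from 1 h to 4 h then gave 7034 genes, with 28 members higher and 10 lower. At 8 h 5 members were called higher with upper quartile normalization and 5 with a filter of 5 CPM in 4 libraries. The replicate block called 223 genes and 1 member at 4 h (hsp90aa1.2, 0.71, adjusted p = 0.0051, edgeR) and 2 members with a positive interaction of 8 h with 4 h. It kept 23 of the 28 calls of 8 h. The numbers were not taken to pair the libraries, since the labels do not say so and at each time at least 1 of 4 pairs correlated under 0.1: deviations of same-numbered libraries correlated from -0.762 to 0.634 (1 h), from 0.0839 to 0.469 (4 h) and from -0.111 to 0.0692 (8 h).

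Leaving out 1 library at a time called 0 to 2 genes (1 h), 56 to 131 (4 h) and 3847 to 5314 (8 h), with 2 to 5 members higher and 16 to 28 lower at 8 h. For the interaction of 8 h with 4 h it gave 1453 to 2546 genes, 0 to 2 members positive and 8 to 19 negative, and for DMSO from 1 h to 4 h 1994 to 4143 genes, 5 to 13 members higher and 1 to 5 lower. DESeq2 kept 27 of the 28 calls of 8 h, RLE normalization 28, no filter 27 and upper quartile 25. Low counts limit hsp70.2, hsp70l and hspb12, and reads shared by related genes may limit the hsp70 and hsp90aa1 genes, though sequences were not compared. In the all-library fit, 4 of the 26 called members it tested were called.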
